A study of Homo sapiens with 8 samples.

Results

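The PCNA peaks described here lay on the arms of 17 human chromosomes, 1 to 12 and 16 to 20, away from the centromeres. A peak is a stretch of genome where sequenced fragments from a PCNA immunoprecipitate piled up above the local background, and it was taken as an arm peak when its start fell outside a fixed window around the centromere of its chromosome. By this rule, 612 of all 4020 listed peaks were arm peaks, and 2544 lay in the windows of the same chromosomes. The arms covered 2292 Mb (93.3% of these chromosomes) and the windows 165 Mb. The rule used positions only, and the enrichment and recurrence of the peaks did not enter it. The members were chosen with earlier results of these data known. The low number and density of peaks on the arms, and their spacing, are therefore not independent of that choice.

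PCNA is a ring-shaped clamp that replication factor C closes around DNA at replication forks, where it holds DNA polymerases on their template and gathers repair and chromatin proteins. In S phase, it is expected wherever DNA is being copied, and the arms hold the large majority of the genes and of the early replicating DNA. γ-Tubulin, encoded by *TUBG* genes, nucleates microtubules and is also found in the nucleus. Centromeres and chromosome ends are built of repeated sequence, from which short reads can be aligned to more than 1 place.

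Chromatin was immunoprecipitated with a rabbit antibody against PCNA from MCF10A cells, a non-tumorigenic breast epithelial line, and from *TUBG*-shRNA-MCF10A cells (knockdown cells), a population of the same line that stably expresses a short hairpin RNA against γ-tubulin and was kept under Zeocin. All cells went through a double thymidine block, which halts them at the start of S phase, and were then released for 1 or 2 h. The 8 ChIP libraries made 4 conditions of 2, and the authors called peaks once per condition, over both of its libraries, against whole-cell lysate. Accordingly, there was 1 list per condition and no spread between replicates. No p-value was computed, every interval covers counting error only, and neighbouring peaks are not independent of each other. The cell population and its own transfection and selection cannot be told apart. Positions are on hg19; the genes and sequences under the peaks were not analysed here.

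Arm peaks were most numerous in MCF10A cells at 2 h. The MCF10A lists held 71 arm peaks at 1 h and 462 at 2 h, and the knockdown lists 40 at 1 h and 39 at 2 h. In MCF10A cells, the number at 2 h was 6.51 times that at 1 h (95% exact binomial interval 5.06 to 8.48), whereas in knockdown cells the ratio was 0.975 (0.611 to 1.55), an interval that includes no change. MCF10A cells had 1.77 times as many arm peaks as knockdown cells at 1 h (1.19 to 2.68) and 11.8 times as many at 2 h (8.53 to 16.9). At a q-value of 1e-10 or less, the ratio at 1 h was 1.56, with an interval that includes no change (0.831 to 2.99), and the ratio at 2 h was 11.4 (5.53 to 27.1). The fewest reads at the highest point of an arm peak were 15 in MCF10A cells at 1 h and 5 at 2 h. In knockdown cells, they were 11 and 12. The median in MCF10A cells at 2 h was 15 reads, and the part of such weak peaks in these ratios was not tested.

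In the windows, the MCF10A ratio of 2 h to 1 h was 4.33 (3.87 to 4.85) and the ratio in knockdown cells was 1.41 (1.17 to 1.69). Between cell populations, the window ratio was 1.83 at 1 h (1.54 to 2.18), close to that on the arms, and 5.64 at 2 h (4.98 to 6.41). Over all listed peaks, the arm ratio between times in MCF10A cells and that between cell populations at 2 h lay above the window ratios, without overlap of the counting intervals. This did not hold among strong peaks. With the q-value limited to 1e-10, the arms held 28 peaks in MCF10A cells at 1 h, 91 at 2 h, 18 in knockdown cells at 1 h and 8 at 2 h. Between the times, the ratio in MCF10A cells was then 3.25 on the arms (2.11 to 5.16) and 6.11 in the windows (5.09 to 7.37), the opposite order. The ratio between cell populations at 2 h was 9.85 in the windows (7.87 to 12.5), within the interval of the arms. At 1 h, that ratio was 3.91 in the windows (2.68 to 5.85) and 1.56 on the arms (0.831 to 2.99). In knockdown cells, the ratio of 2 h to 1 h was 2.43 in the windows (1.62 to 3.71) and 0.444 on the arms (0.167 to 1.07). The counting intervals of the knockdown ratios did not overlap. With 1 pooled list per condition, none of these differences could be tested against replicates.

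**Figure D1:**
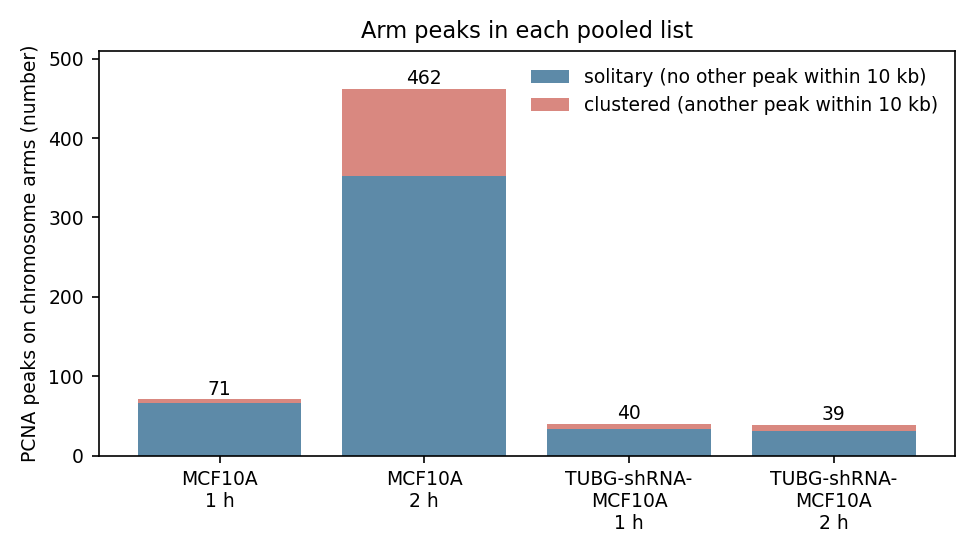
Number of PCNA peaks on chromosome arms in each of the 4 pooled lists, split into peaks with and without another peak of the same list within 10 kb. The MCF10A bar at 2 h reaches 462 peaks, and the other bars lie between 39 and 71.

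The arms carried a small share of each list. Arm peaks were 12.6% of the MCF10A list at 1 h (95% Wilson interval 10.1 to 15.6) and 16.7% at 2 h (15.3 to 18.1), and 13.8% (10.3 to 18.2) and 9.75% (7.21 to 13.1) of the knockdown lists. Per 100 Mb, the arms held 3.10 and 20.2 peaks in MCF10A cells and 1.75 and 1.70 in knockdown cells at 1 and 2 h. The windows held 232 and 1005 per 100 Mb in MCF10A cells and 127 and 178 in knockdown cells. The peak density of the windows was between 49.8 (MCF10A, 2 h) and 105 (knockdown, 2 h) times that of the arms. Of the arm peaks of the 4 lists, 65 (10.6%) lay within 5 Mb of a window, a belt that makes up 7.42% of the arm length.

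Peaks near the shortest width of their list were common on the arms. MACS2 normally sets its minimum peak length to the fragment length, and the fragment length of each list was inferred here from its shortest peak. The median arm peak was 130 bp wide in MCF10A cells at 1 h and 61.5 bp at 2 h, and 126 and 140 bp in the knockdown lists, against shortest peaks of 121, 47, 112 and 115 bp in the same lists. The MCF10A list at 2 h was thus called with the shortest fragments, a difference that cannot be told apart from the condition. A width of at most 10 bp above the shortest was found in 56.3% of the arm peaks in MCF10A cells at 1 h, 42.2% at 2 h, 47.5% in knockdown cells at 1 h and 33.3% at 2 h. In the windows, this share was 19.6%, 26.2%, 18.7% and 17.01% in the same order.

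At the summit of a peak, the number of reads and the background expected from the control were solved from the deposited fold enrichment and p-value. The median arm summit held 35 reads in MCF10A cells at 1 h and 15 at 2 h, and 32.5 and 35 reads in knockdown cells. The corresponding window summits held 68, 29, 91 and 93.5 reads. Arm summits therefore rested on fewer reads than window summits in each list.

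The median fold enrichment of the arm peaks was 4.20 in MCF10A cells at 1 h, 5.53 at 2 h, 4.90 in knockdown cells at 1 h and 3.13 at 2 h. In the windows, it was 2.89, 5.96, 2.17 and 2.27. The arms exceeded the windows in 3 lists and fell below them in MCF10A cells at 2 h. The local background at the arm summits was 3.67, 4.01, 3.66 and 8.15 times the lowest background of the list, against 11.5, 6.69, 29.9 and 30.4 times in the windows. The background is the denominator of the fold enrichment, and its part in the difference between arms and windows was not tested. The lowest background, which follows the number of reads, was 15.5 and 9.32 reads per kb of shortest peak width in MCF10A cells and 12.1 in both knockdown lists.

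**Figure D2:**
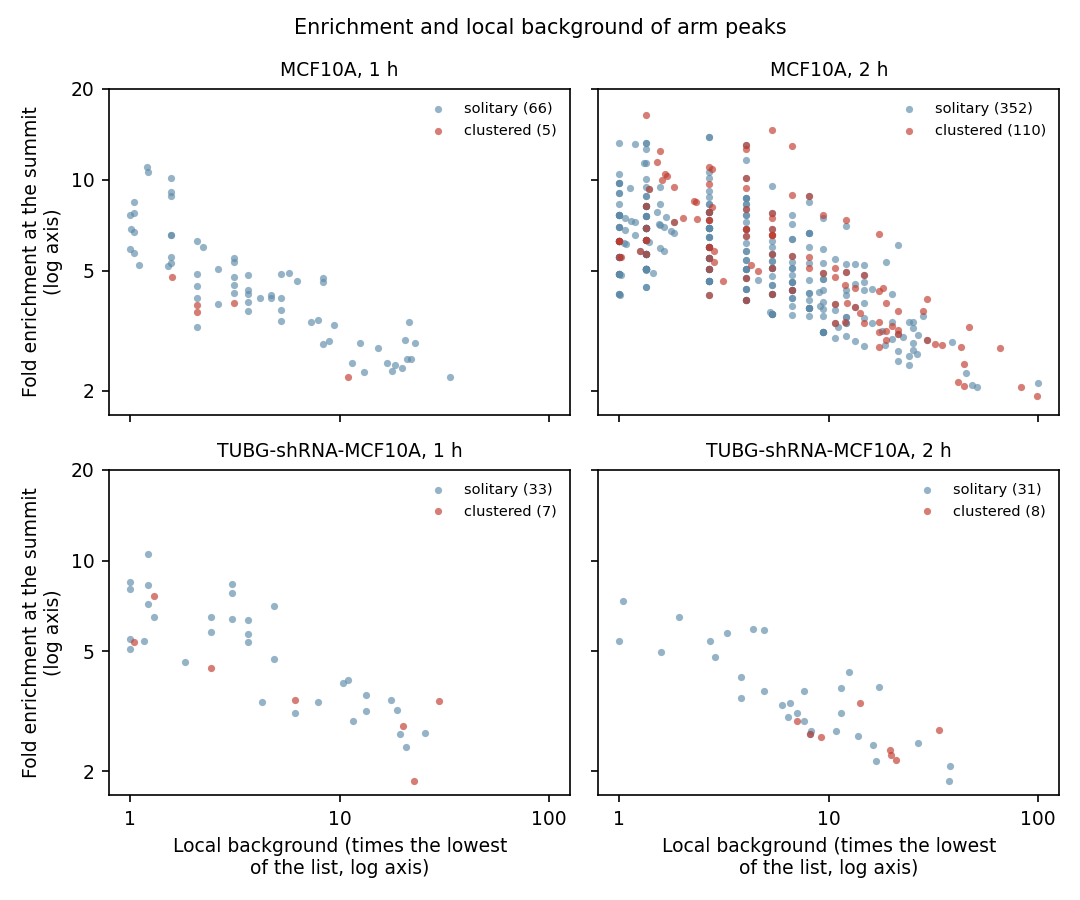
Each point is 1 arm peak, with the local background at its summit (times the lowest background of its list, log axis) against the fold enrichment at the summit (log axis), in 4 panels for the 4 lists, with solitary and clustered peaks in different colours. The MCF10A list at 2 h reaches both the highest fold enrichment, 16.4, and the highest background, 100.3 times the lowest.

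Most arm peaks stood alone. A peak was called clustered when another peak of the same list lay within 10 kb and solitary otherwise. In MCF10A cells at 1 h, 5 of 71 arm peaks were clustered (7.04%, 95% Wilson interval 3.05 to 15.4), against 82.0% of the whole list. At 2 h, 110 of 462 were clustered (23.8%, 20.2 to 27.9), against 81.9% of the list. In knockdown cells, 7 of 40 arm peaks were clustered at 1 h (17.5%, 8.75 to 32.0), against 77.2% of the list, and 8 of 39 at 2 h (20.5%, 10.8 to 35.5), against 85.2%. In the windows, between 91.4% and 96.9% of the peaks were clustered. In each list, the solitary state was the rule on the arms and the exception near centromeres, but the windows also held many more peaks per Mb.

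The rise in MCF10A cells was seen in both classes of arm peak. There were 66 solitary arm peaks at 1 h and 352 at 2 h (ratio 5.33, 4.09 to 7.05), and clustered ones rose from 5 to 110, a ratio of 22 (9.15 to 69.1). In knockdown cells, there were 33 and 31 solitary peaks, a ratio of 0.939 (0.556 to 1.58). The clustered arm peaks of MCF10A cells at 2 h formed 29 groups, 16 of which were pairs, with a median gap of 249 bp between neighbours and a median span of 2422 bp. The largest group had 12 peaks. MCF10A cells at 1 h had 2 groups, and the knockdown lists had 3 each, none with more than 3 peaks.

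Solitary and clustered arm peaks of MCF10A cells at 2 h had nearly the same median fold enrichment, 5.53 and 5.58. The clustered peaks had a median of 21.5 reads at the summit (quartiles 14.3 and 31.8) and the solitary ones 14 (10 and 20), and the background was 5.35 and 2.68 times the lowest. In knockdown cells at 2 h, the 31 solitary peaks had a median fold enrichment of 3.49 and a background of 7.07 times the lowest, and the 8 clustered ones 2.63 and 16.9. At 1 h in these cells, the medians of fold enrichment were 5.36 in 33 solitary and 3.45 in 7 clustered peaks. Clustered arm peaks thus lay at places of higher control signal in 3 lists. In MCF10A cells at 1 h, the direction was opposite, with 2.10 times the lowest background in 5 clustered and 3.67 in 66 solitary peaks.

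How often an arm peak recurred depended on the lists compared and on the direction, from 4.11% to 51.3% of the arm peaks. Both of these values came from the pair of 2 h lists, which held 462 and 39 arm peaks. Peaks were matched when at least 25% of both overlapped. Of the arm peaks in MCF10A cells at 1 h, 35 of 71 had a match at 2 h (49.3%, 95% Wilson interval 38.01 to 60.7), compared with 79.7% of the whole list and 84.6% of its window peaks. In the other direction, 35 of the 462 arm peaks at 2 h had a match at 1 h (7.58%, 5.50 to 10.4), against 16.3% of the list and 19.7% of its windows. Hence, 427 arm peaks of MCF10A cells at 2 h had no match in the earlier list of the same cells.

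In knockdown cells, 8 of 40 arm peaks at 1 h had a match at 2 h (20.0%, 10.5 to 34.8), against 58.6% of the list. Of the 39 arm peaks at 2 h, 8 had a match at 1 h (20.5%, 10.8 to 35.5), against 42.0% of the list. Although the numbers of arm peaks in these cells were 40 and 39, the positions were thus largely different between the time points. In the windows, the shares were 69.4% and 48.6%.

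Between the cell populations at 1 h, 4 of 71 arm peaks of MCF10A cells matched a knockdown peak (5.63%, 2.21 to 13.6), against 28.1% of the list, and 5 of 40 matched in the other direction (12.5%, 5.46 to 26.1), against 56.2%. At 2 h, 19 of 462 arm peaks of MCF10A cells had a match in knockdown cells (4.11%, 2.65 to 6.33), against 11.8% of the list. Of the 39 arm peaks of knockdown cells at 2 h, 20 matched an MCF10A peak (51.3%, 36.2 to 66.1), against 83.2% of the list. In each of these 8 comparisons, the arm share was lower than the window share, with counting intervals that did not overlap. Solitary peaks did not show this order throughout. Their share with a match was higher on the arms than in the windows in 5 of the 8 comparisons and lower in 3, and the counting intervals, wide for the 12 to 51 solitary window peaks of a list, overlapped in all 8. For example, 33 of 66 solitary arm peaks of MCF10A cells at 1 h and 6 of 16 solitary window peaks had a match at 2 h. Arm peaks also had fewer reads at the summit than window peaks, and the part of read number in the lower recurrence was not tested. For arm peaks at a q-value of 1e-10 or less, 16 of 28 from MCF10A cells at 1 h had a match at 2 h. From knockdown cells at 1 h to 2 h it was 5 of 18, and from MCF10A to knockdown cells at 1 h 2 of 28. For window peaks at the same limit, the shares were 128 of 137, 32 of 35 and 55 of 137 in the same order. From knockdown cells at 2 h to 1 h, the shares were alike, 5 of 8 on the arms and 53 of 85 in the windows.

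**Figure D3:**
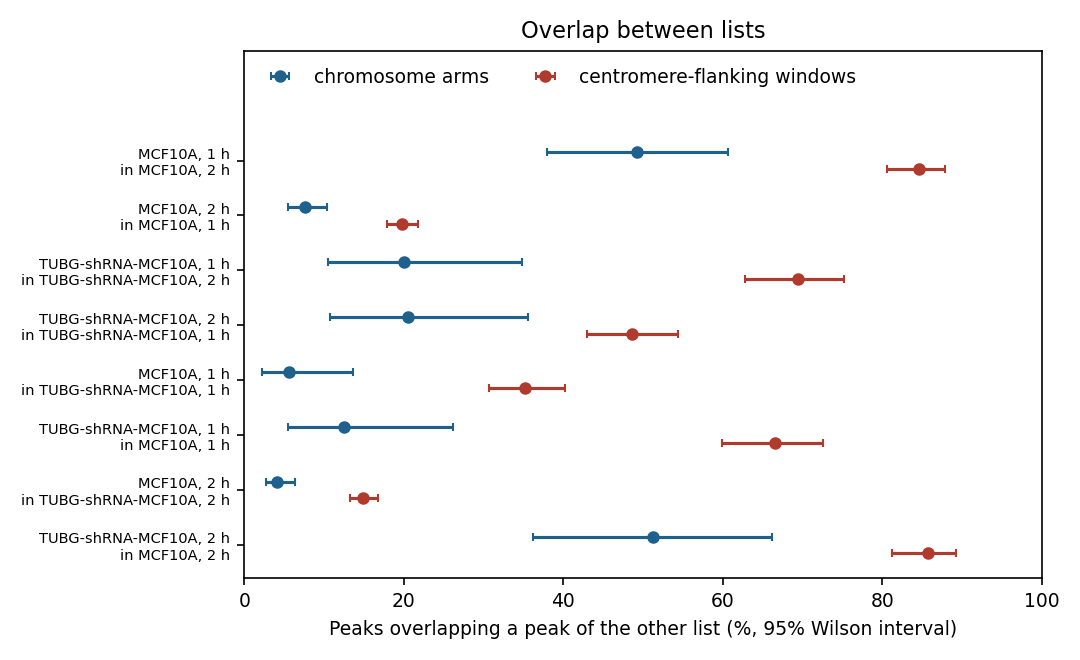
Share of peaks of 1 list (first line of each label) that overlap a peak of another list (second line) by at least 25% of both, in percent with 95% Wilson intervals, for peaks on the arms and in the centromere-flanking windows. The arm value lies left of the window value in all 8 pairs, from 4.11% against 14.9% to 51.3% against 85.7%.

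By the 25% rule, some arm peaks had no match in another list. They were 34 of 71 (47.9%) and 412 of 462 (89.2%) in MCF10A cells at 1 and 2 h. In knockdown cells, they were 28 of 40 (70.0%) and 16 of 39 (41.0%). Over the whole lists, the shares without a match were 15.7% and 77.0% in MCF10A cells and 13.8% and 10.0% in knockdown cells. Below, peaks with no match are called listed once. A short peak inside a wide one can fail this rule. An example is chr1:224201327-224201382 at 2 h within chr1:224201325-224201585 at 1 h, both of MCF10A cells. The MCF10A list at 2 h had the shortest peaks. With any overlap of 1 bp, 40 of 71 MCF10A arm peaks at 1 h matched one at 2 h, and 41 of 462 the other way. The 412 peaks listed once in MCF10A cells at 2 h had a median of 14 reads at the summit and of 5.53 in fold enrichment, and the 50 recurring ones 21.5 reads and 6.33. In MCF10A cells at 1 h, peaks listed once had 28.5 reads and a fold enrichment of 4.99, and recurring ones 47 reads and 3.65. In knockdown cells at 1 h, the respective values were 25.5 reads and 5.39 for 28 peaks and 58 reads and 3.43 for 12 peaks. The background was 2.10 times the lowest at peaks listed once and 6.29 at recurring ones in MCF10A cells at 1 h, and 2.77 and 6.69 at 2 h. In knockdown cells, it was 2.74 and 11.3 at 1 h, and 5.43 and 10.9 at 2 h. In each list, the recurring arm peaks had more reads and stood on a higher background than those listed once.

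When arm peaks of the 4 lists within 10 kb of each other were joined, 450 regions resulted. Of these, 395 (87.8%) were found in 1 list, 45 in 2, 7 in 3 and 3 in all 4. By comparison, 88 of 126 window regions (69.8%) were found in 1 list and 15 in all 4. The MCF10A list at 2 h alone accounted for 328 of the arm regions. Both MCF10A lists and no other held 29 regions, of 68 with a peak at 1 h and 380 at 2 h. Both knockdown lists and no other held 2, of 36 and 34. Since the lists differ in length, these counts are not on 1 scale.

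The 3 regions found in all lists lay on chromosomes 1, 2 and 9. Published lists of hg19 regions with abnormally high ChIP-seq signal were not used here, and these and other regions rich in peaks may be on them. The region on chromosome 2, chr2:109815792-109816339, had the highest −log10 q-value of all arm peaks in MCF10A cells at 1 h (26.5) and in knockdown cells at 1 h (26.7). At 2 h, it was 24.5 in MCF10A and 17.2 in knockdown cells. The strongest peak of each list there had a fold enrichment of 3.39 and 6.07 in MCF10A cells and of 3.41 and 2.75 in knockdown cells at 1 and 2 h, with 139, 62, 141 and 131 reads at the summit. Its background was high, between 21.4 and 33.7 times the lowest. In both MCF10A lists the region was 1 peak, and in both knockdown lists it was 2 peaks with a gap between them.

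The region on chromosome 9, chr9:72653054-72653554, lay 0.653 Mb outside the window of that chromosome. It had fold enrichments of 2.55 and 6.62 in MCF10A cells and 2.68 and 3.80 in knockdown cells, with −log10 q-values of 12.0, 24.0, 11.3 and 20.4. This was the strongest arm peak of knockdown cells at 2 h. The background was between 17.4 and 25.6 times the lowest. As in the region on chromosome 2, each list placed a peak over the same place, with somewhat different borders. MCF10A cells at 2 h had a further peak beside it, chr9:72653502-72653554, with no match in another list. Its fold enrichment was 7.65 and its −log10 q-value 18.9.

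The region on chromosome 1, chr1:224199436-224204217, held the largest number of arm peaks, 1 in MCF10A cells at 1 h, 12 at 2 h, 2 in knockdown cells at 1 h and 1 at 2 h. A site near its middle was shared. There, the peak of MCF10A cells at 2 h, chr1:224201437-224201506, was the strongest arm peak of that list, with a fold enrichment of 14.7, a −log10 q-value of 39.1 and 48 reads. The peak of MCF10A cells at 1 h at this site had a fold enrichment of 2.30 with 58 reads, that of knockdown cells at 1 h 1.86 with 58 reads and that at 2 h 2.16 with 52 reads. The summits thus held between 48 and 58 reads. The background was 2.34 reads in MCF10A cells at 2 h and 24.6, 30.6 and 23.5 reads in the other lists, in the order above. As a multiple of the lowest background of its own list, it was 5.35 in MCF10A cells at 2 h and 13.1, 22.6 and 16.8 in the others. Reads, backgrounds and fold enrichments of lists whose inferred fragment lengths differ are not on 1 scale.

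**Figure D4:**
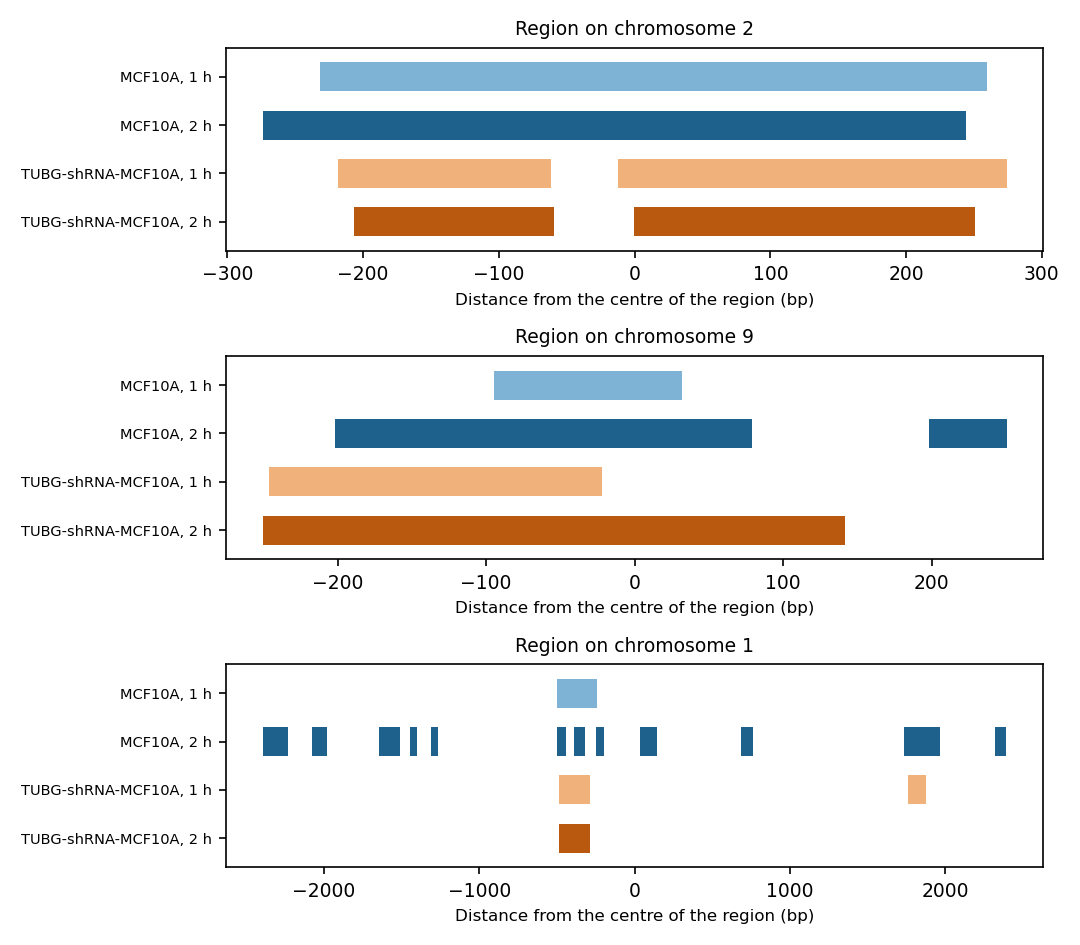
Peaks of each list (1 row of bars per list) in the 3 arm regions found in all 4 lists, by distance in bp from the centre of the region. The regions on chromosomes 2 and 9 span 548 and 501 bp with 1 or 2 peaks per list, and the region on chromosome 1 spans 4782 bp with 12 peaks in MCF10A cells at 2 h and 1 or 2 in the other lists.

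Among the other regions with the most peaks, several were listed in MCF10A cells at 2 h alone. On chromosome 1, chr1:564478-569418 held 10 peaks at 2 h in MCF10A cells and none in the other lists, with fold enrichments between 2.14 and 4.49 and a background between 11.9 and 44.2 times the lowest. This stretch is known to carry a nuclear copy of mitochondrial DNA. The same list had 23 peaks on the mitochondrial genome, the knockdown list at 2 h had 1 and both 1 h lists had 0. The part of mitochondrial reads in these 10 arm peaks was not tested. On chromosome 2, chr2:132983059-133001866 held 8 peaks in MCF10A cells at 2 h, and on chromosome 18, chr18:107011-109808 held 7 there, at a background of up to 99.0 times the lowest.

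The region chr1:724139-727016 was listed in MCF10A cells at both times, with 2 peaks at 1 h (fold enrichments 2.22 and 3.91) and 7 at 2 h, the strongest of which, chr1:726300-726379, had a fold enrichment of 13.0, a −log10 q-value of 37.3 and 50 reads. No peak was listed there in knockdown cells. The remaining region of this kind lay 10.3 kb from the end of the short arm of chromosome 5, at chr5:10018-11770. It held 3 peaks in MCF10A cells at 1 h, 3 at 2 h and 3 in knockdown cells at 2 h, with highest fold enrichments of 4.78, 11.4 and 2.95. Knockdown cells at 1 h had no peak in it.

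Of the 12 strongest solitary arm peaks, 3 from each list, 6 had no match in another list. Among all solitary arm peaks, 34 of 66 and 33 of 352 had a match in MCF10A cells at 1 and 2 h. In knockdown cells, 8 of 33 and 18 of 31 had one. The 12 include peaks of the shared regions on chromosomes 2 and 9. In MCF10A cells at 1 h, chr12:79438307-79438450 had a fold enrichment of 10.1, a −log10 q-value of 23.6 and 39 reads on 1.57 times the lowest background, with no match in another list. Next to it in rank, chr11:95604454-95604599 had a fold enrichment of 11.04 (−log10 q-value 23.05), and it matched a peak at 2 h in the same cells. In MCF10A cells at 2 h, the leading solitary peaks were chr8:97184382-97184460 (fold enrichment 13.1, −log10 q-value 27.7, 35 reads), chr5:63776830-63776883 and chr7:48503368-48503428 (13.8, 25.2 and 29 reads each). None of these had a match in any other list.

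In knockdown cells at 1 h, chr3:106697224-106697344 matched a peak of MCF10A cells at 2 h and chr7:24044052-24044196 one of MCF10A cells at 1 h, while chr4:150865683-150865801 (fold enrichment 7.78, −log10 q-value 18.4, 39 reads) was listed nowhere else. In knockdown cells at 2 h, chr10:10149922-10150086 (4.29, 19.5 and 78 reads) matched peaks of MCF10A cells at 2 h and of knockdown cells at 1 h. By contrast, chr6:102782533-102782651 (5.88, 16.1 and 45 reads) was found in that list only. The top solitary peaks listed once had backgrounds between 1.57 and 4.89 times the lowest, and those in all 4 lists 17.4 or more. Those matched in some but not all lists had 1.20 on chromosome 11, 3.05 on chromosome 7, 4.88 on chromosome 3 and 12.5 on chromosome 10. The backgrounds of top solitary peaks with and without a match thus overlapped.

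Arm peaks were dense at the very ends of chromosomes. Within 1 Mb of an end, which is 1.48% of the arm length, lay 60 of the 612 arm peaks (9.80%). MCF10A cells had 7 of 71 arm peaks there at 1 h (9.86%, 4.86 to 18.98) and 46 of 462 at 2 h (9.96%, 7.55 to 13.0). In knockdown cells, it was 1 of 40 at 1 h (2.50%, 0.443 to 12.9) and 6 of 39 at 2 h (15.4%, 7.25 to 29.7). The interval excluded the share of arm length in 3 lists and included it in knockdown cells at 1 h. With a q-value of 1e-05 or less, MCF10A cells at 1 h had 2 of 60 arm peaks near an end (3.33%, 0.919 to 11.4), an interval that also includes the share of arm length. Within 0.1 Mb, 0.148% of the arm length, lay 4 and 12 peaks in MCF10A cells and 0 and 5 in knockdown cells.

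Over the 4 lists together, the density was 617.6 peaks per 100 Mb within 0.1 Mb of an end, 127 between 0.1 and 1 Mb, 23.5 between 1 and 5 Mb, 17.3 between 5 and 20 Mb and 26.8 farther away. Thus, the excess did not reach beyond 1 Mb. The median distance to the nearer end was 34.3 and 40.9 Mb in MCF10A cells and 42.3 and 37.5 Mb in knockdown cells, near the 35.1 Mb of the arm bases.

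**Figure D5:**
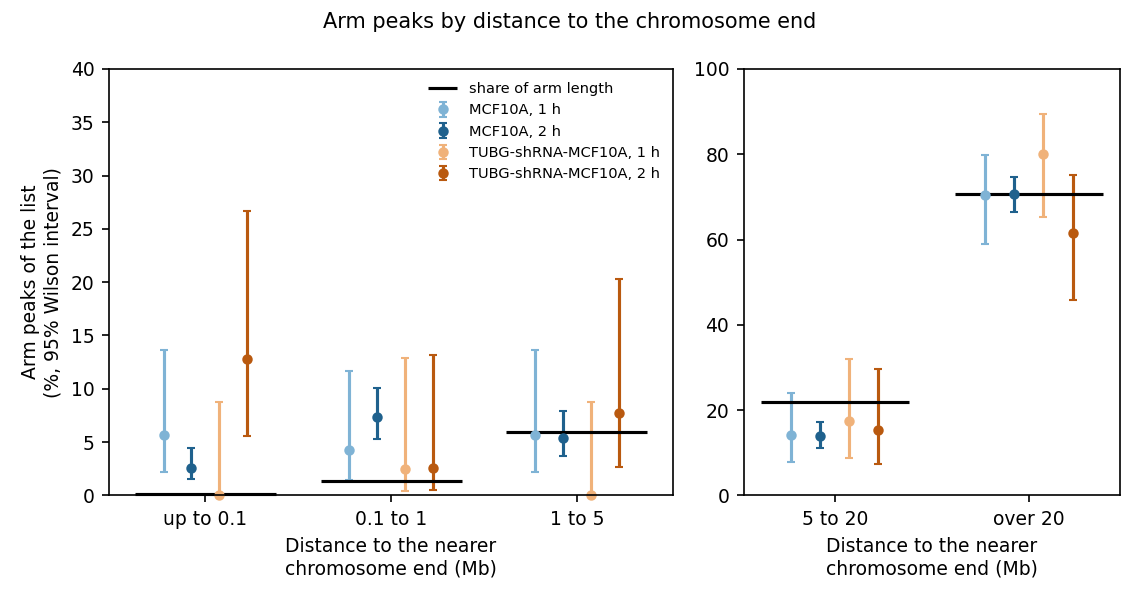
Share of the arm peaks of each list in 5 bands of distance to the nearer chromosome end, with 95% Wilson intervals, and the share of arm length in each band as black lines. The axes of the panels differ; within 0.1 Mb of an end, 3 lists lie above the line at 0.148%, and the share of knockdown cells at 1 h is 0.

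The peaks near ends came in groups at few ends. Of the 60 peaks, 43 were clustered, and 13 of the 34 chromosome ends had any arm peak within 1 Mb. MCF10A cells at 1 h had peaks at 3 ends and at 2 h at 13, and knockdown cells at 1 and 4 ends. The short arm end of chromosome 1 held 21 of the peaks, 3 in MCF10A cells at 1 h and 18 at 2 h, including the region with the mitochondrial copy. The short arm ends of chromosomes 5 and 18 held 9 and 7. Solitary peaks near an end were fewer, 2 of 66 and 11 of 352 in MCF10A cells and 1 of 33 and 3 of 31 in knockdown cells. When arm peaks within 10 kb were joined, the share near an end in MCF10A cells at 2 h was 4.72%, less than the 9.96% of single peaks and above the 1.48% of arm length.

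Chromosome ends carry telomeric and subtelomeric repeats, and the sequence under the peaks was not analysed. Except in knockdown cells at 1 h, the outermost peaks bordered the unsequenced gap at a chromosome end of hg19. In MCF10A cells, they were chr1:10064-10187 at 1 h (fold enrichment 5.57, 21 reads) and chr7:10012-10074 at 2 h (fold enrichment 6.94, 10 reads). In knockdown cells at 2 h, the outermost peak, chr12:133841610-133841901, had a fold enrichment of 4.12 with 25 reads and matched a peak of MCF10A cells at 2 h. At 1 h in these cells, no arm peak lay closer than 831 kb to an end, and the nearest, chr1:248419315-248419458, had a fold enrichment of 8.28 with 21 reads. The strongest of all peaks within 0.1 Mb of an end was chr12:95613-95721 in MCF10A cells at 2 h, with a fold enrichment of 13.2 (−log10 q-value 19.5), which was named after its values were seen. The handling of reads that align to several repeats is not given in the sources used here, and its part in these peaks was not tested.

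Chromosomes with longer arms tended to hold more arm peaks, but the density per 100 Mb varied between chromosomes. It ranged from 0 to 7.01 and from 6.82 to 31.0 in MCF10A cells at 1 and 2 h. In knockdown cells, it ranged from 0 to 4.09 and from 0 to 5.70. Across the 17 chromosomes, the correlation of the number of arm peaks with arm length was 0.781 and 0.857 in MCF10A cells and 0.723 and 0.501 in knockdown cells. These are descriptions over chromosomes that share their libraries. Chromosome 1 held the most arm peaks in MCF10A cells, 9 at 1 h and 68 at 2 h, chromosome 2 with 7 in knockdown cells at 1 h, and chromosome 8 with 8 at 2 h. The short chromosomes 16, 17 and 19 held 9, 8 and 5 arm peaks over all lists.

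In 1-Mb steps along the arms, the majority of peaks had their step to themselves, 83.1% and 60.6% in MCF10A cells and 75% and 79.5% in knockdown cells at 1 and 2 h. The fullest step in MCF10A cells at 2 h was the first Mb of chromosome 1, with 18 peaks. The step of chromosome 11 from 48 to 49 Mb came next with 13, all of this list, between positions 48839656 and 48963061, with fold enrichments from 4.19 to 11.1. This step lies just outside the centromere window of chromosome 11. In MCF10A cells at 1 h, the first Mb of chromosome 1 and that of chromosome 5 had 3 peaks each. In knockdown cells, the fullest steps also had 3 peaks, at 1 h on chromosome 2 from 109 to 110 Mb and on chromosome 16 from 30 to 31 Mb. Those on chromosome 16, chr16:30933171-30934472, lay within 0.1 Mb of the centromere window. They made up 7.5% of the arm peaks of that list, and this belt is 0.148% of the arm length. At 2 h, the fullest steps were the first Mb of chromosome 5 and chromosome 8 from 129 to 130 Mb. In the step of chromosome 8, the fold enrichments were between 2.19 and 2.35.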

How the data were processed

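PCNA ChIP-seq was analysed in 4 conditions with 2 libraries each. The submitters' processing notes name Bowtie 1.0.0, MACS2 2.1.1, bedtools 2.17.0 and hg19; the q-value threshold and the treatment of duplicate and multiply aligned reads are not given in the sources used here. The authors deposited 1 list per condition, called on both libraries, with the summit enrichment as a fold (a ratio to local background) with −log10 p-values and −log10 q-values. The deposited score is a rounded multiple of the −log10 q-value and was not used.

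Arm peaks started outside these windows: chromosome 1 from 120 to 146 Mb, 2 from 88 to 97, 3 from 89 to 95, 4 from 48 to 54, 5 from 45 to 51, 6 from 57 to 63, 7 from 56 to 63, 8 from 42 to 48, 9 from 38 to 72, 10 from 38 to 44, 11 from 50 to 56, 12 from 33 to 39, 16 from 31 to 48, 17 from 21 to 27, 18 from 14 to 20, 19 from 23 to 29 and 20 from 25 to 31. Chromosome lengths came from GenomeInfoDb 1.38.1.

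The software was numpy 2.4.6, scipy 1.17.1, pandas 2.3.3 and matplotlib 3.10.9 under Python 3.11.15. Summit reads were solved from fold enrichment (pseudocount of 1) and the Poisson p-value, within 0.0003 of the −log10 p-value, and a whole number was found for 100% of peaks. The steps were tested on simulated data. The members and named positions were chosen with earlier results of these data known. In each list, the 3 arm peaks and the 3 solitary arm peaks of highest −log10 q-value, the one nearest an end, and the chromosome and 1-Mb step with the most arm peaks were named; over the lists, the 6 regions with most peaks and up to 6 found in all lists were named. Alternatives were stricter q-values, other gaps, overlaps and distances, joined peaks, base pairs, wider windows, and the chromosome with the most arm peaks (1) left out.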

Additional observations from a re-analysis of the deposited data

Results flagged for a closer look

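The ratio of arm peaks at 2 h to those at 1 h was 6.51 in MCF10A cells and 0.975 in *TUBG*-shRNA-MCF10A cells. It was picked out because the number rose in one cell population and not in the other, and the counting intervals do not overlap. The difference was not tested, since each condition has 1 pooled list. The MCF10A list at 2 h also had the shortest peaks (from 47 bp), from which the shortest fragments were inferred, and this cannot be told apart from the condition. The weakest arm summit held 5 reads in that list and 15 in MCF10A cells at 1 h.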

How the results depend on the processing

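No paired analysis was possible because the libraries of a condition are merged in 1 list. Every ratio whose interval excluded 1 kept its direction, but that of MCF10A to knockdown cells at 1 h included 1 with a q-value of at most 1e-10 (1.56, 0.831 to 2.99). The knockdown ratio of 2 h to 1 h, 0.975, lay on either side of 1, from 0.444 to 1.15 (base pairs covered), and was 1.03 with windows widened by 2 Mb. The arm share of the MCF10A lists was higher at 2 h than at 1 h over all peaks and lower under both stricter q-values. The cause of each shift was not tested. With a q-value of at most 1e-10, the arms held 28 and 91 peaks in MCF10A cells and 18 and 8 in knockdown cells (*TUBG*-shRNA-MCF10A), the ratios of 2 h to 1 h were 3.25 and 0.444, and the arm share was 14.2% and 7.57% in MCF10A cells at 1 and 2 h and 29.0% in knockdown cells at 1 h. With at most 1e-05, 239 (MCF10A) and 19 (knockdown) arm peaks were left at 2 h and the MCF10A ratio of 2 h to 1 h was 3.98. The arm share was then 13.8% and 11.4% in MCF10A cells and 18.4% and 7.09% in knockdown cells, the clustered share 0% in MCF10A cells at 1 h and 6.67% and 10.5% in knockdown cells, and the share near an end 3.33% in MCF10A cells at 1 h, an interval that includes the share of arm length. In base pairs covered, the MCF10A ratio of 2 h to 1 h was 3.43 and that of MCF10A to knockdown cells at 2 h 5.50. Joined at 1 kb, the arm share was 22.3% and 39.5% in MCF10A cells and 19.2% and 16.7% in knockdown cells.

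A gap of 1 kb gave 17.1% clustered arm peaks in MCF10A cells at 2 h, and one of 100 kb 28.8%. At an overlap of 50%, the share with a match was 22.5% from MCF10A cells at 1 h to 2 h and 3.46% back, and at 2 h 2.60% from MCF10A to knockdown cells and 30.8% back. Matches within 1 kb raised the shares of MCF10A peaks at 2 h to 12.8% (at 1 h) and 7.79% (in knockdown cells). Within 0.5 Mb of an end lay 4.55% of the MCF10A arm peaks at 2 h and 0% of the knockdown ones at 1 h, and within 5 Mb 15.4% of the former. With arm peaks joined at 10 kb, the MCF10A share at 2 h was 4.72%. Leaving out the first Mb of chromosome 1, solitary peaks alone, regions joined for overlap and the window ratios at a q-value of at most 1e-10 were added after the data were seen and the first 3 of these moved no value beyond its counting interval. Depth limits the weak peaks, and absence of a peak from a list does not show that PCNA was absent there.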
